A study of Mus musculus with 4 samples.

Results

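The centrosome and primary cilium genes described here are the protein-coding rows whose symbols begin with Cep, Ift or Bbs followed by a digit, with Dync2 or with Sas followed by p or s, together with Stil, Pcnt, Pcm1, Cdk5rap2, Aspm, Tctn1 to Tctn3, Arl3, Arl13b, Rpgrip1l, Ofd1 and Kif3a to Kif3c. They number 75 of the 13881 genes in the deposited table, 41 in a centrosome set (the Cep genes, Sass6, Stil, Pcnt, Pcm1, Cdk5rap2 and Aspm) and 34 in a cilium set (the others). Membership was set by symbol alone, although the symbols were chosen with earlier results of these data known. Expression was compared between 2 control libraries and 2 libraries of cells depleted of Rybp, a Polycomb repressive complex 1 subunit, by a lentiviral short hairpin RNA (shRybp). Both groups were neural progenitor cells of the forebrain, taken from C57BL/6 embryos at E14, held in proliferation medium with 2% B27 without vitamin A and with EGF and FGF-2 at 20 ng/ml each. The control is labelled only as such, and the sources used here do not give its vector. The labels do not name separate cultures or embryos for the 2 libraries of a group, so the spread that p-values rest on may be technical.

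Centrosomes organise microtubules and the spindle poles of dividing cells. Each holds a pair of centrioles that is duplicated once per cycle, under the kinase Plk4, through a cartwheel built from Sass6 and Stil. When a progenitor leaves mitosis, its older centriole can dock at the apical membrane through its distal appendages and grow a primary cilium, an antenna that is built by intraflagellar transport (IFT) and needed for Hedgehog signalling. Inherited loss of centriole and spindle pole genes such as Aspm, Cdk5rap2, Stil, Cep152 and Cep135 causes primary microcephaly, and loss of cilium genes such as Cep290, Rpgrip1l and Arl13b causes ciliopathies with brain malformation.

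Total counts were between 14355308 and 17598873 per library. On the log2 scale and over the tested genes, the controls correlated at 0.9945, the shRybp libraries at 0.994 and libraries of different groups at 0.981 to 0.983. Rybp itself had 4.43 and 3.95 FPKM (fragments scaled by transcript length and library size) in the controls and 3.01 and 2.66 in shRybp, 65.8% of control (log2 fold change -0.60, SE 0.12, Benjamini-Hochberg (BH) adjusted p = 0.0017 by edgeR). All 8 progenitor markers were tested and found in every library, from Pax6 at 3.37 to 3.59 FPKM to Fabp7 at 1351 to 2210 FPKM. Of these 2 rose, Nes (log2 fold change 0.67) and Vim (0.27), and 4 fell, Slc1a3 (-0.67), Fabp7 (-0.61), Sox2 (-0.46) and Sox9 (-0.34, also in the astrocyte list). Pax6 (-0.02) and Hes1 (0.14) did not pass. Markers of other cells moved too. Of 6 tested neuron markers 1 rose and 3 fell, with log2 fold changes from -1.22 to 0.72. Of 8 oligodendrocyte lineage markers 0 rose, 3 fell and 5 did not pass, with log2 fold changes from -2.51 to 0.01. Over all tested genes 16.3% rose and 16.7% fell. The summed FPKM of 9 astrocyte markers was 621 and 636 in the controls and 257 and 279 in shRybp, with all 8 tested markers lower. Of 10 markers of multiciliated ependymal cells, 2 were in the table. Their sum was between 4.78 and 5.59 FPKM in every library, but Foxj1 fell from 4.22 and 4.13 to 2.78 and 2.99 FPKM, while Dynlrb2 had 0.816 and 1.46 against 2.00 and 2.08 FPKM and did not pass (log2 fold change 0.82, BH-adjusted p = 0.16 by edgeR). Of 7 microglia and 5 endothelial markers, 2 and 1 were in the table, each list summing to under 1 FPKM (at most 0.967 and 0.216), and none of 6 fibroblast markers was. In bulk RNA, fewer cells of a type and less RNA per cell cannot be told apart.

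Most centrosome and cilium genes were little changed when Rybp was depleted. A gene is said to have risen or fallen if its edgeR quasi-likelihood test gave a BH-adjusted p of at most 0.05 over the 12062 genes with a mean of at least 1 FPKM. By this measure 10 of 73 tested members rose, where 16.3% of all tested genes did, and 6 fell, where 16.7% did. Members that rose or fell made 21.9% of those tested, against 33.0% of all tested genes. The median absolute log2 fold change was 0.14 for the members and 0.19 for all tested genes, and the median standard error was 0.09 for both. Of the 57 members that did not pass, 55 had a 95% confidence interval inside a 1.5-fold change in either direction, and Bbs5 and Bbs10 were the exceptions. The same held for 82.9% of all tested genes that did not pass. Of the 16 that passed, 1 changed by 1.5-fold or more, the appendage gene Cep164. Cep112 (0.867 to 0.991 FPKM) and Cep126 (0.370 to 0.713 FPKM) were below the filter and not tested. Counts of a tested member in a library ran from 52 (Bbs5) to 5106 (Cdk5rap2).

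The centrosome set and the cilium set are given side by side. In the centrosome set 7 of 39 rose (17.9%, near the share of all tested genes) and 3 fell (7.7%), and the median log2 fold change was 0.08. In the cilium set 3 of 34 rose and 3 fell (8.8% each), and the median was -0.01, against 0.00 over all tested genes. Of all tested genes 16.3% rose and 16.7% fell. FPKM was higher in both shRybp libraries than in both controls for 51.3% of the centrosome set and 26.5% of the cilium set, where 38.5% of all tested genes were so, and lower in both for 20.5% and 17.6%, where 29.0% of all tested genes were. FPKM does not hold the TMM scaling of libraries that the edgeR test used. The TMM factors were 0.982 and 0.993 in the controls and 1.0105 and 1.014 in shRybp. Comparisons of FPKM therefore put shRybp slightly higher than the test does. No test of the difference between the sets was made, since members of a set are not replicates. The numbers that passed depended on single libraries: the centrosome set gave 7 rises with every library and 4 without control 1, 5 without control 2, 3 without shRybp 1 and 3 without shRybp 2. In the cilium set 0 rose without control 1 (4 higher at an unadjusted edgeR p under 0.05), 1 without control 2, 1 without shRybp 1 and 0 without shRybp 2 (also 4). Its falls numbered 1 without control 1 and 0 without shRybp 2 (2 lower at an unadjusted p under 0.05), and those of the centrosome set 2 without control 2 and 1 without shRybp 2. DESeq2, which tested the same genes, called 2 rises and 1 fall in the centrosome set and 1 of each in the cilium set.

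**Figure D1:**
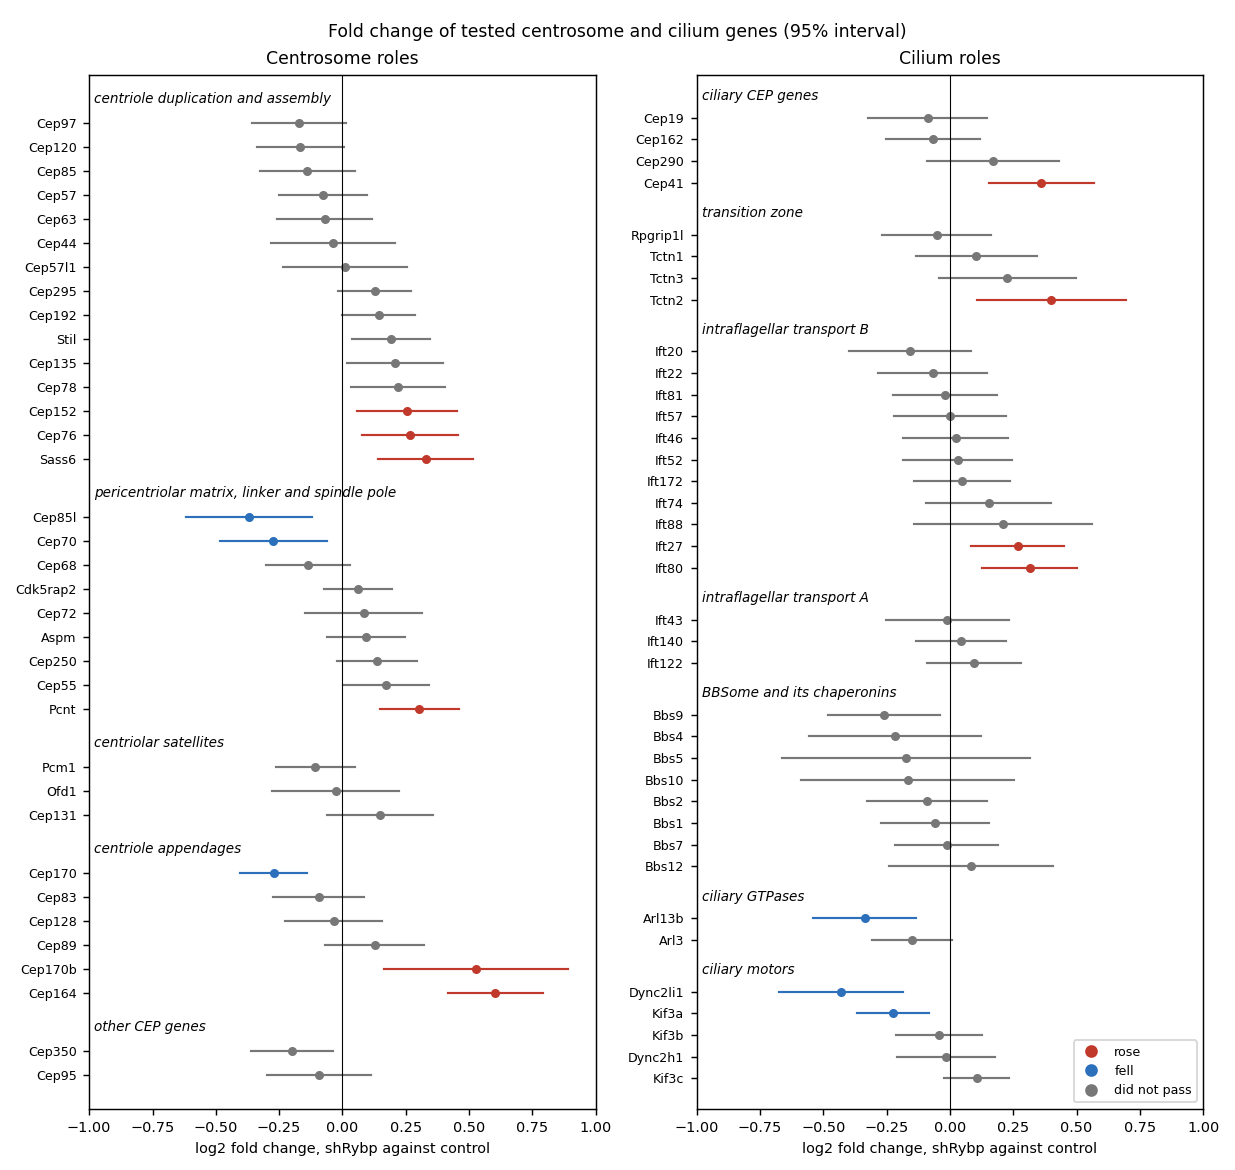
Log2 fold change of the tested members reported by name or range, shRybp against control (x axis), with its 95% confidence interval as a bar, genes in rows grouped by role. The left panel holds the centrosome roles (with Ofd1, which belongs to the cilium set, among the satellites) and the right panel the cilium roles (with the Cep genes of the cilium, which belong to the centrosome set). Red genes rose, blue genes fell and grey genes did not pass. Cep164 lies farthest to the right at 0.60 and Dync2li1 farthest to the left at -0.43.

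Of 15 tested genes of centriole duplication 3 rose (20.0%, where 16.3% of all tested genes did) and 0 fell in edgeR, with a median log2 fold change of 0.13. Leaving out single libraries gave 0 rises without shRybp 1 (4 higher at an unadjusted p under 0.05) and 1 without each of the others. At an unadjusted p under 0.05, 6 were higher and 0 lower. DESeq2 called 0 in either direction, with 1 higher and 0 lower at an unadjusted p under 0.05. Sass6 encodes the protein whose rings form the cartwheel of a new centriole (ENSMUSG00000027959, mm10 chromosome 3, 116594982 to 116631004, plus strand). It had 4.17 and 4.10 FPKM in the controls and 5.46 and 5.20 in shRybp, a log2 fold change of 0.33 (SE 0.09, BH-adjusted p = 0.011 by edgeR). Both shRybp libraries were above both controls. Gm42893, on the opposite strand, covers 24.5% of its exon bases, and without strand information their reads cannot be told apart. Cep152 is the scaffold that recruits Plk4 to the parent centriole. It had 3.65 and 3.88 FPKM in the controls and 4.74 and 4.46 in shRybp (log2 fold change 0.25, SE 0.09, BH-adjusted p = 0.047 by edgeR), again without overlap. Cep76, which restrains extra rounds of duplication, had 6.51 and 7.14 FPKM against 8.48 and 8.34 (log2 fold change 0.27, SE 0.09, BH-adjusted p = 0.034 by edgeR). These calls rest on few libraries. That of Sass6 ended without control 2 (BH-adjusted p = 0.058 by edgeR) or shRybp 1 (0.073), that of Cep152 without any single library (0.084 to 0.24), and that of Cep76 without control 1 (0.20), shRybp 1 (0.13) or shRybp 2 (0.088).

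Stil, the partner of Sass6 in the cartwheel, had 12.1 and 11.7 FPKM in the controls and 14.2 and 13.7 in shRybp. The groups did not overlap, but the gene did not pass (log2 fold change 0.19, 95% confidence interval 0.04 to 0.35, BH-adjusted p = 0.054 by edgeR). With library totals in place of TMM scaling it did (0.23, BH-adjusted p = 0.024 by edgeR). Cep135, a cartwheel-linked protein, had 4.73 and 4.97 FPKM in the controls against 5.48 and 6.00 (log2 fold change 0.21, BH-adjusted p = 0.090 by edgeR). Cep192, the other Plk4 receptor and a pericentriolar scaffold, had 7.11 and 7.61 against 8.44 and 8.21 FPKM (0.14, BH-adjusted p = 0.12 by edgeR). In these 3 genes too the shRybp libraries lay above the controls. Cep78 and Cep295 were also above their controls in both libraries without passing. Cep78 had 9.30 and 9.20 FPKM against 10.8 and 11.3 (0.22, BH-adjusted p = 0.068 by edgeR) and passed with library totals (0.038). Cep63, the binding partner of Cep152, had 3.69 and 3.51 FPKM in the controls and 3.46 and 3.57 in shRybp (log2 fold change -0.07, 95% confidence interval -0.26 to 0.12). Cep57, the most abundant member of this role, had 15.1 and 13.8 FPKM against 14.2 and 13.9 (-0.08, 95% confidence interval -0.25 to 0.10). In both genes the groups overlapped. The remaining 6 had log2 fold changes between -0.17 (Cep97) and 0.13 (Cep295). Among them Cep120 (-0.17), Cep97 and Cep85 (-0.14) were below their controls in both shRybp libraries, also without passing. Of the 15 genes of this role, 8 lay above both controls in FPKM and 3 below, where 38.5% and 29.0% of all tested genes did. These FPKM comparisons lack the TMM scaling and so put shRybp slightly higher than the test does.

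Components of the pericentriolar matrix, the linker between centrioles and the spindle pole changed in both directions. Of 9 tested, 1 rose (11.1%) and 2 fell (22.2%), where 16.3% and 16.7% of all tested genes did. The median log2 fold change was 0.08. DESeq2 called 1 rise and 0 falls. Pcnt encodes pericentrin, the long scaffold that anchors gamma-tubulin complexes (mm10 chromosome 10, 76351263 to 76442786, minus strand). It had 5.85 and 5.63 FPKM in the controls and 7.01 and 7.502 in shRybp (log2 fold change 0.30, SE 0.07, BH-adjusted p = 0.0064 by edgeR). The libraries of the groups stood apart, and the call ended without shRybp 2 (BH-adjusted p = 0.072 by edgeR). Cep70, which binds gamma-tubulin, had 4.84 and 4.599 FPKM in the controls and 3.83 and 4.17 in shRybp (-0.27, SE 0.10, BH-adjusted p = 0.047 by edgeR). Cep85l, whose product acts at the centrosome in neuronal migration, had 1.94 and 2.15 FPKM against 1.64 and 1.61 (-0.37, SE 0.11, BH-adjusted p = 0.027 by edgeR). Each lay below its controls in both shRybp libraries. The call of Cep70 ended without control 1 (0.18), shRybp 1 (0.24) or shRybp 2 (0.088) and that of Cep85l without control 2 (0.11), shRybp 1 (0.079) or shRybp 2 (0.13), and DESeq2 called neither (adjusted p of 0.22 and 0.15).

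The microcephaly genes Cdk5rap2 and Aspm were among the more abundant members and did not pass. Cdk5rap2, which recruits gamma-tubulin to the centrosome, had 22.3 FPKM in both controls and 24.6 and 23.0 in shRybp (log2 fold change 0.06, 95% confidence interval -0.07 to 0.19, BH-adjusted p = 0.49 by edgeR). Aspm, which focuses spindle poles and keeps progenitor divisions symmetric, had 20.0 and 19.9 FPKM against 23.3 and 20.3 (0.09, 95% confidence interval -0.06 to 0.25, BH-adjusted p = 0.35 by edgeR). In both genes the shRybp libraries lay above the controls in FPKM, the lower of them only slightly. So small a step need not hold on the TMM scale of the test. Cep55, a protein of abscission at the midbody, had 18.1 and 17.9 FPKM against 20.2 and 21.4 (0.17, BH-adjusted p = 0.11 by edgeR). The linker genes Cep250 and Cep68 and the matrix gene Cep72 had log2 fold changes of 0.14, -0.14 and 0.08.

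Satellite genes did not pass. Satellites are granules that ferry proteins to the centrosome and the cilium base. Pcm1, their scaffold and the most abundant of all tested members, had 37.6 and 38.0 FPKM in the controls and 38.5 and 33.3 in shRybp, so the groups overlapped (log2 fold change -0.11, 95% confidence interval -0.26 to 0.05, BH-adjusted p = 0.27 by edgeR). Without shRybp 1 it did pass (-0.22, BH-adjusted p = 0.047 by edgeR). Cep131 had 5.74 and 5.16 FPKM against 6.13 and 6.26 (0.15), and Ofd1, a gene of distal centrioles and satellites, 3.25 and 3.36 against 3.51 and 3.14 (-0.03). At an unadjusted p under 0.05 edgeR and DESeq2 each gave 0 of these 3 genes in either direction.

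Appendage genes held the largest change. Distal appendages dock the mother centriole to the membrane before a cilium grows, and subdistal appendages anchor microtubules. Cep164 is the distal appendage protein that recruits the kinase Ttbk2 to start ciliogenesis (ENSMUSG00000043987, mm10 chromosome 9, 45766946 to 45828691, minus strand). It rose from 2.80 and 3.05 FPKM in the controls to 4.53 and 4.58 in shRybp, 1.52-fold (log2 fold change 0.60, SE 0.09, BH-adjusted p = 2.2e-04 by edgeR). Both shRybp libraries were far above both controls, and the call held under each of the 11 alternatives. The other distal appendage genes did not follow: Cep83 had 6.70 and 6.53 FPKM against 6.21 and 6.51 (-0.09, 95% confidence interval -0.27 to 0.09), and Cep89 had 7.71 and 6.97 against 7.95 and 8.48 (0.13, 95% confidence interval -0.07 to 0.32). These intervals do not reach the lower bound of that of Cep164, which was 0.42, although the difference between genes was not tested.

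The paralogues Cep170 and Cep170b went opposite ways. Cep170, a microtubule-binding protein of subdistal appendages, fell from 14.95 and 15.3 FPKM to 13.2 and 12.4 (log2 fold change -0.27, SE 0.06, BH-adjusted p = 0.0045 by edgeR), a call that held under each of the 11 alternatives. Cep170b was lower in level, with 0.893 and 1.31 FPKM in the controls and 1.68 and 1.57 in shRybp (0.53, SE 0.17, BH-adjusted p = 0.028 by edgeR). Its controls differed widely from each other, and the call ended without control 1 (log2 fold change 0.28, BH-adjusted p = 0.22 by edgeR) or shRybp 1 (0.085). Cep128, also of subdistal appendages, had a log2 fold change of -0.04. Of the Cep genes with no role assigned here, Cep350 had 6.38 and 7.11 FPKM in the controls against 6.30 and 5.74 in shRybp, below them in both (-0.20, BH-adjusted p = 0.057 by edgeR). It passed without control 1 (0.022) or shRybp 1 (0.040). Cep95 had 5.21 and 5.58 against 4.98 and 5.38 FPKM (-0.09).

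**Figure D2:**
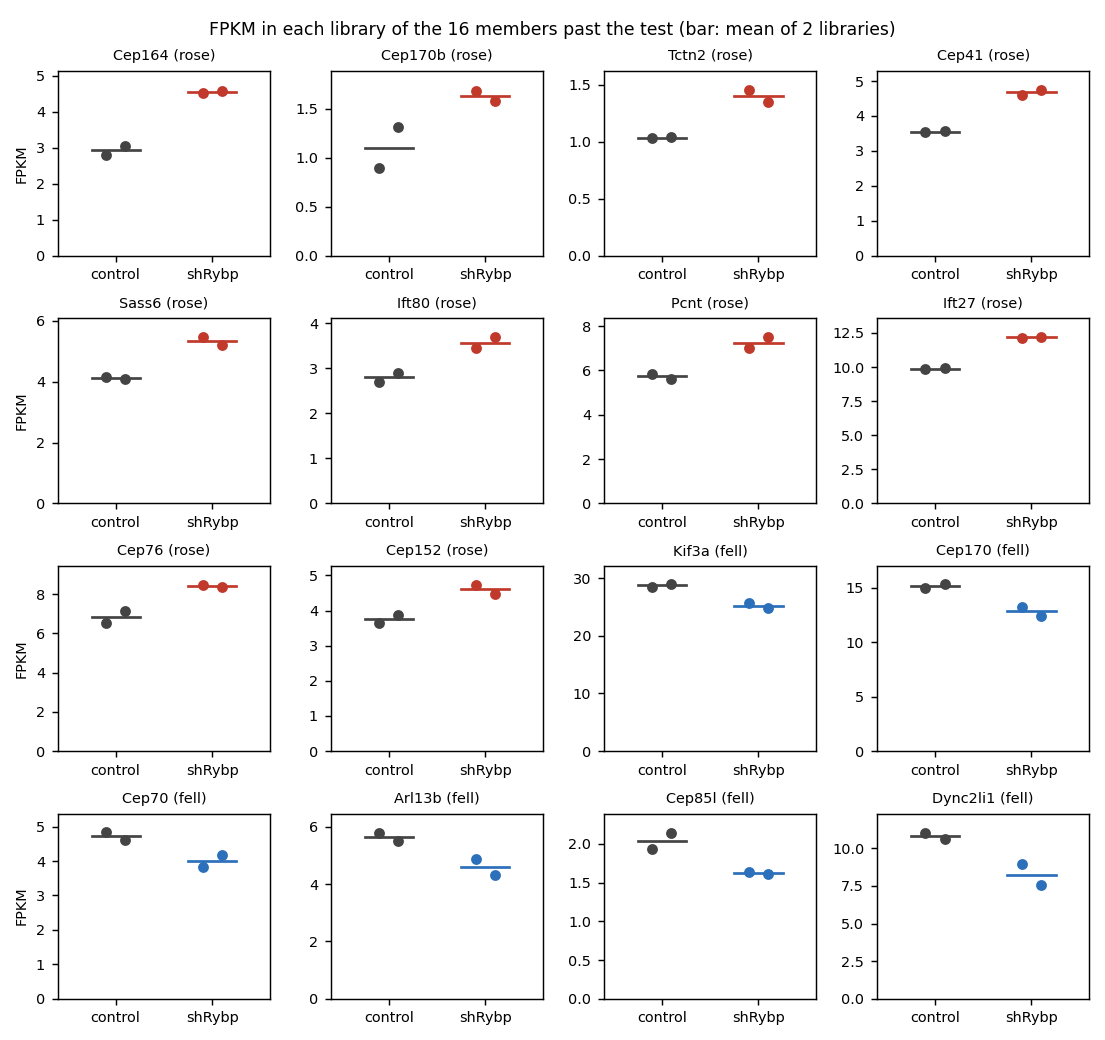
FPKM (y axis, from 0) in each library of the 16 members that rose (red) or fell (blue), ordered from the highest to the lowest log2 fold change, with controls in dark grey and a bar at the mean of each group's 2 libraries. In each panel the 2 groups do not overlap. Relative to the controls the step is largest for Cep164, from 2.93 to 4.56 FPKM on average. Relative to their level the control points lie farthest apart for Cep170b, at 0.893 and 1.31 FPKM.

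Among the Cep genes that serve the cilium, Cep41, a gene for tubulin glutamylation in the axoneme, rose from 3.54 and 3.56 FPKM to 4.59 and 4.76 (log2 fold change 0.36, SE 0.09, BH-adjusted p = 0.011 by edgeR). The 2 controls were nearly equal and both shRybp libraries were higher, but the call ended without shRybp 2 (BH-adjusted p = 0.085 by edgeR) and in DESeq2 (0.087). Cep290, a gate protein of the transition zone at the cilium base, had 1.11 and 1.30 FPKM in the controls and 1.45 and 1.33 in shRybp (0.17, 95% confidence interval -0.09 to 0.43). Cep19 had 10.7 and 10.9 against 11.2 and 9.63 (-0.09). Cep162 had a log2 fold change of -0.07.

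Of 4 transition zone genes, Tctn2 rose, from 1.03 and 1.04 FPKM to 1.45 and 1.35 (log2 fold change 0.40, SE 0.14, BH-adjusted p = 0.039 by edgeR). It encodes a tectonic, a protein of the membrane gate. Leaving out any single library ended the call (BH-adjusted p of 0.078 to 0.17 by edgeR), as did DESeq2 (0.19). Tctn3 had 3.60 and 4.19 FPKM in the controls and 4.38 and 4.95 in shRybp (0.23, 95% confidence interval -0.05 to 0.50), and Tctn1 had 1.90 and 2.06 against 2.05 and 2.31 (0.10), with 19.0% of its exon bases under Hvcn1 on the opposite strand. Rpgrip1l, a scaffold of the same zone, had 1.76 and 1.603 FPKM against 1.78 and 1.56 (-0.05, 95% confidence interval -0.27 to 0.16), so its groups overlapped.

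Most IFT genes did not pass. The IFT-B complex carries cargo toward the tip with kinesin-2, and the IFT-A complex returns with dynein-2. Of 11 IFT-B genes 2 rose (18.2%, where 16.3% of all tested genes did) and 0 fell. At an unadjusted edgeR p under 0.05, 2 were higher and 0 lower, and DESeq2 called 1 rise. Ift27, a small GTPase of IFT-B that lets the BBSome leave the cilium, rose from 9.82 and 9.90 FPKM to 12.1 and 12.2 (log2 fold change 0.27, SE 0.08, BH-adjusted p = 0.028 by edgeR). Ift80 rose from 2.71 and 2.89 FPKM to 3.45 and 3.69 (0.32, SE 0.09, BH-adjusted p = 0.014 by edgeR). Within each group the libraries lay close together and the groups did not overlap. The call of Ift27 ended without any single library (BH-adjusted p of 0.083 to 0.11 by edgeR) and that of Ift80 without control 1 (0.070) or shRybp 2 (0.075).

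Ift88, the IFT-B core subunit whose loss abolishes cilia, was low, with 1.35 and 1.38 FPKM in the controls and 1.74 and 1.499 in shRybp (log2 fold change 0.21, SE 0.16, 95% confidence interval -0.14 to 0.56). Its interval is wider than that of most members. Ift74 had 12.5 and 11.0 FPKM against 14.9 and 11.9 (0.15), and Ift57 had 11.8 and 10.5 against 12.3 and 10.6 (0.00, 95% confidence interval -0.22 to 0.22). The other 6 IFT-B genes ranged from -0.16 (Ift20) to 0.05 (Ift172). The IFT-A genes Ift43 (-0.01), Ift140 (0.04) and Ift122 (0.09) did not pass, with 0 of 3 in either direction at an unadjusted p under 0.05 in edgeR or DESeq2. Ift43 had 9.59 and 8.95 FPKM against 9.10 and 9.77, and Ift140 had 6.30 and 6.79 against 7.18 and 6.67, so both overlapped.

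BBSome genes sat slightly below 0 and did not pass. The BBSome is a coat that carries membrane receptors out of the cilium, and Bbs10 and Bbs12 encode chaperonin-like proteins that help assemble it. Of 8 genes 7 had a negative log2 fold change, with a median of -0.13, where 5974 of 12062 tested genes were negative. These genes are not replicates, and the count of signs was not tested. In edgeR 0 rose or fell, with 1 lower (Bbs9) and 0 higher at an unadjusted p under 0.05, and DESeq2 gave 0 by either measure. Bbs9 had 3.01 and 3.13 FPKM in the controls and 2.56 and 2.69 in shRybp (-0.26, 95% confidence interval -0.48 to -0.04, BH-adjusted p = 0.070 by edgeR), below its controls in both libraries. The most abundant, Bbs2, had 5.11 and 5.81 FPKM against 5.00 and 5.48 (-0.09), and Bbs7 had 4.59 and 4.53 against 4.93 and 4.36 (-0.01). Both overlapped. Bbs5, with the fewest counts, had 1.74 and 1.82 FPKM against 1.96 and 1.29 (-0.17, 95% confidence interval -0.67 to 0.32), an interval that does not exclude a 1.5-fold fall.

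The 3 genes that fell in the cilium set, 8.8% where 16.7% of all tested genes fell, encode motor subunits and a GTPase. Arl13b encodes the GTPase of the ciliary membrane that activates Arl3. It had 5.80 and 5.49 FPKM in the controls and 4.87 and 4.32 in shRybp (log2 fold change -0.34, SE 0.09, BH-adjusted p = 0.015 by edgeR). Arl3, which unloads lipid-linked cargo in the cilium, had 30.9 and 29.0 FPKM against 27.3 and 28.1 (-0.15, 95% confidence interval -0.31 to 0.01, BH-adjusted p = 0.13 by edgeR). Both genes were lower in both shRybp libraries. Dync2li1, the light intermediate chain of the retrograde motor dynein-2, had 11.0 and 10.6 FPKM against 8.93 and 7.56 (-0.43, SE 0.11, BH-adjusted p = 0.011 by edgeR), the lowest log2 fold change among tested members. Its heavy chain gene Dync2h1 had a log2 fold change of -0.02.

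Kif3a, a motor subunit of the anterograde kinesin-2, had 28.5 and 29.0 FPKM in the controls and 25.7 and 24.7 in shRybp (log2 fold change -0.23, SE 0.07, BH-adjusted p = 0.018 by edgeR). Its usual partner Kif3b had 15.8 and 15.01 FPKM against 16.3 and 14.3 (-0.04, 95% confidence interval -0.22 to 0.13), with overlap. Kif3c, an alternative partner known mostly from neurons, had 24.1 and 24.2 FPKM against 25.97 and 27.2 (0.11, BH-adjusted p = 0.20 by edgeR), and 35.3% of its exon bases lie under the antisense gene 1110002L01Rik. DESeq2 did not call the falls of Arl13b (adjusted p = 0.085) and Dync2li1 (0.058). With limma on log2(FPKM + 1) those of Arl13b (adjusted p = 0.067) and Kif3a (0.052) were not called. The falls rest on few libraries. Those of Arl13b ended without control 1 (BH-adjusted p = 0.069 by edgeR) or shRybp 2 (0.15), those of Kif3a without control 1 (0.052), control 2 (0.053) or shRybp 2 (0.13), and that of Dync2li1 without shRybp 2 (log2 fold change -0.31, BH-adjusted p = 0.14 by edgeR).

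**Figure D3:**
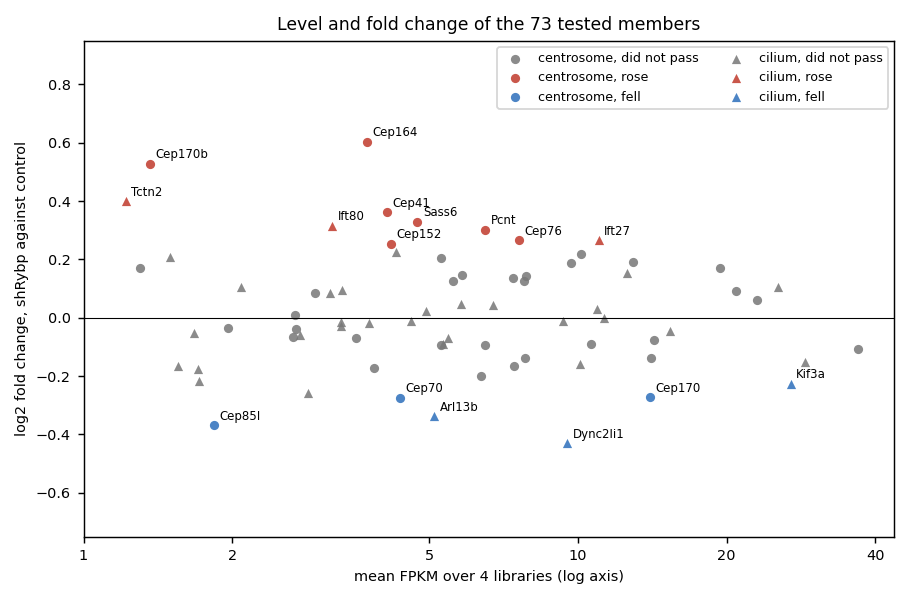
Log2 fold change, shRybp against control (y axis), against the mean FPKM over the 4 libraries (x axis, log scale) for the 73 tested members, with circles for the centrosome set and triangles for the cilium set. Red symbols rose, blue symbols fell and grey symbols did not pass. Named rises lie between 1.22 (Tctn2) and 11.0 (Ift27) mean FPKM, and the falls reach up to 26.98 (Kif3a).

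Promoter sequences from RefSeq (build GRCm38.p6, 250 bases before to 50 bases after each annotated start) were found for 65 of the 75 members and 63 of those tested. Those without an entry include Cep76, Cep120, Cep192, Cep350, Dync2li1, Ift80, Ift81, Ift122 and Pcm1. A cell-cycle homology region (CHR) is the short element through which genes of G2 and M phase are controlled, searched here as TTTGAA or TTCGAA on both strands. It was in 12 of 33 centrosome promoters (36.4%) and 0 of 30 cilium promoters, where 15.6% of the promoters of 8851 tested genes held it and 21.7% of all 27025 genes with a RefSeq promoter. The X-box is the element bound by RFX factors, which control cilium genes. It was in 2 of 30 cilium promoters (Bbs7 and Tctn1) and 1 of 33 centrosome promoters (Cep19), where 0.63% of tested genes held it. CCAAT was in 51.5% of centrosome and 60.0% of cilium promoters, where 43.95% of tested genes held it. An E2F match, TTTGGCGC or TTTCGCGC, was in 3 of 63 members (Arl3, Cep63 and Ift27), where 1.92% of tested genes held it, and the palindromic NRF1 motif in 1 (Cep57l1), where 2.47% did. No motif searched contains another, and a match is a description of the letters, not of binding.

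The CHR lay in the promoters of 3 of 6 centrosome genes that rose and had an entry, 1 of 3 that fell and 8 of 24 that did not pass, counting a gene with several RefSeq promoters if any held it. Cep170 has 2 RefSeq promoters. The one at the 5′ end of the gene (chr1:176813904-176814203) holds no CHR, and the match lies in the other, inside the gene (chr1:176807075-176807374). These are the stretches around it, upstream of the annotated start, for the genes that rose and for Cep170, which fell, with the CHR in capitals. The X-box of Bbs7, also in capitals, follows as the cilium counterpart. All run 5′ to 3′ on the strand of the gene, on which the CHR of Cep170 reads in reverse complement.
Sass6 (chr3:116594759-116594844, plus strand): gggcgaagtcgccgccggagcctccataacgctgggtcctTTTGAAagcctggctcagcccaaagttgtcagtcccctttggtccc
Cep152 (chr2:125625219-125625304, minus strand): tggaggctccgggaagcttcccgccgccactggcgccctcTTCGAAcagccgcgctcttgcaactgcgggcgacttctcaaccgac
Cep164 (chr9:45828746-45828831, minus strand): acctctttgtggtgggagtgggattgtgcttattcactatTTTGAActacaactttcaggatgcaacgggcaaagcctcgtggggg
Cep170 (chr1:176807139-176807224, minus strand): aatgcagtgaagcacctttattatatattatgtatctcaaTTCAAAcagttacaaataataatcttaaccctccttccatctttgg
Bbs7 (chr3:36613457-36613550, minus strand): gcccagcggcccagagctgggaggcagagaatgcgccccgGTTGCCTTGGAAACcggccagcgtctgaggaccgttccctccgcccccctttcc
The CHR begins 159 bases before the start in Sass6, 151 in Cep152, 128 in Cep164 and 60 before the internal start of Cep170, and the X-box 121 bases before it in Bbs7. In Aspm, Cdk5rap2, Cep72 and Cep295, which did not pass, the CHR lies after the start. Cep55, Cep57l1, Cep89 and Cep162 did not pass either. In these a CHR begins 33, 203, 114 and 147 bases before an annotated start.

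Other genes of the same structures, listed by function without regard to their symbols, were tested in the same fit. Of 18 further centriole duplication genes 9 rose (50.0%) and 2 fell (11.1%), where 16.3% and 16.7% of all tested genes did. Their median log2 fold change was 0.21. The kinase gene Plk4, which starts duplication, rose from 8.76 and 8.36 FPKM to 11.9 and 11.8 (log2 fold change 0.43, SE 0.07, BH-adjusted p = 6.5e-04 by edgeR). The separase gene Espl1 (0.44), which frees the centriole pair at mitotic exit, the centriole wall genes Poc1a (0.41) and Poc1b (0.39) and the linker kinase gene Nek2 (0.35) rose as well. Wdr62, a microcephaly gene of the spindle pole that was named after its value was seen, had 5.17 and 5.43 FPKM in the controls and 6.38 and 7.12 in shRybp (0.32, BH-adjusted p = 0.018 by edgeR). Its call was lost without control 1 (0.065) or shRybp 2 (0.12). Cntln (-0.26) and the centrin gene Cetn3 (-0.22) fell. Cenpj, which sets centriole length, did not pass (0.11, BH-adjusted p = 0.39 by edgeR). Plk4, Poc1b, Nek2 and Espl1 kept the call whichever library was left out, and the other 7 did not. DESeq2 called 4 rises and 0 falls (2 lower at an unadjusted p under 0.05), and with library totals in place of TMM scaling 0 fell.

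Of 29 further matrix, gamma-tubulin, augmin and appendage genes 8 rose and 4 fell (median 0.07). These are 27.6% and 13.8%, where 16.3% and 16.7% of all tested genes did. The largest rise was that of Nin, which encodes the subdistal appendage protein ninein, from 4.94 and 5.07 FPKM to 7.37 and 6.99 (log2 fold change 0.49, SE 0.07, BH-adjusted p = 1.5e-04 by edgeR). The gamma-tubulin gene Tubg1 rose by 0.41 on the log2 scale, the spindle gene Tacc3 by 0.36 and the augmin genes Haus3 and Haus4 by 0.34 and 0.33. Ssx2ip, a satellite protein gene, fell from 9.35 and 8.96 FPKM to 6.21 and 5.96 (-0.63, SE 0.09, BH-adjusted p = 1.8e-04 by edgeR), and the microtubule polymerase gene Ckap5 (-0.35), Mzt1 (-0.34) and Akap9 (-0.26) fell too. Of these 12 genes 5 kept the call whichever library was left out, which were Nin, Tubg1, Tacc3, Ssx2ip and Ckap5. DESeq2 called 4 rises and 4 falls. Together the further centrosome genes gave 17 rises and 6 falls of 47, 36.2% and 12.8%.

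Further cilium genes changed in both directions. Of 26 transport and BBSome genes 2 rose (7.7%) and 3 fell (11.5%), where 16.3% and 16.7% of all tested genes did (median -0.05). Kifap3, which links Kif3a and Kif3b to cargo, fell from 23.7 and 23.8 FPKM to 19.8 and 20.0 (log2 fold change -0.29, SE 0.07, BH-adjusted p = 0.0048 by edgeR), and the IFT-A gene Wdr19 fell from 1.88 and 1.99 to 1.46 and 1.49 (-0.42, SE 0.10, BH-adjusted p = 0.0059 by edgeR). Tulp3, an adaptor that brings receptors to IFT-A, rose from 5.44 and 5.68 FPKM to 8.02 and 8.33 (0.52, SE 0.07, BH-adjusted p = 2.0e-04 by edgeR). These 3 kept the call whichever library was left out, while the IFT-B gene Hspb11 (-0.39) and Dynll2 (0.23) did not.

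Of 38 further transition zone and ciliopathy genes 5 rose and 4 fell (median 0.04). Tmem231 (log2 fold change 0.65), Tmem138 (0.50), Nphp4 (0.47) and Nek8 (0.38) were among those that rose, and Ahi1 (-0.39), Rab11a (-0.39), Cc2d2a (-0.25) and Ccdc28b (-0.24) fell. Of these Tmem138, Ahi1 and Rab11a kept the call whichever library was left out. Both cilium lists together gave 7 rises and 7 falls of 64 genes, 10.9% each. These numbers are below the 16.3% and 16.7% of all tested genes. DESeq2 called 1 rise and 2 falls in the first list and 2 of each in the second.

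Readouts and regulators of cilia were tested as lists of their own. Of 13 Hedgehog genes, whose signal passes through the cilium, Ptch1, a receptor and target, fell from 15.5 and 15.9 FPKM to 13.5 and 13.0 (log2 fold change -0.29, SE 0.06, BH-adjusted p = 0.0026 by edgeR), and Gli3 rose (0.38, BH-adjusted p = 0.023 by edgeR), with the call lost without control 1 (0.090), shRybp 1 (0.054) or shRybp 2 (0.14). The signal transducer gene Smo did not pass (0.09, BH-adjusted p = 0.37 by edgeR). Of 38 motile cilium genes, ciliogenesis factors and RFX family genes, 14 were in the table and 10 were tested. Foxj1, the master factor of motile cilia, fell from 4.22 and 4.13 FPKM to 2.78 and 2.99 (-0.57, SE 0.14, BH-adjusted p = 0.0082 by edgeR), although DESeq2 did not call it (adjusted p = 0.056). Rfx5 fell (-0.44), with the call lost without shRybp 1 (BH-adjusted p = 0.059 by edgeR), and Rfx3 did not pass (-0.11, BH-adjusted p = 0.36 by edgeR). The 2 falls are 20.0% of the 10, where 16.7% of all tested genes fell, and 8 did not pass. Rfx5 is in the list as a member of the RFX family, and no role of it in cilia is claimed. In edgeR 0 of the 10 rose, with 1 higher at an unadjusted p under 0.05, and DESeq2 gave 0 rises and 0 higher.

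Cell cycle genes rose in the same libraries. Of 30 S phase genes 26 rose (86.7%) and 0 fell, where 16.3% and 16.7% of all tested genes did. Their median log2 fold change was 0.45, with 0 lower at an unadjusted p under 0.05 in edgeR or DESeq2. Among 35 G2 and M genes, 23 rose (65.7%) and 1 fell (2.9%; Ckap2l, -0.18, chosen after its value was seen), with a median of 0.29. The remaining 11 did not pass. The call of Ckap2l was lost without control 1 (BH-adjusted p = 0.23 by edgeR), shRybp 1 (0.084) or shRybp 2 (0.13), with library totals, and in DESeq2 (0.060). The medians of the centriole duplication members (0.13) and of the further duplication genes (0.21) lie between these and the 0.00 of all tested genes, and the cilium set lies at -0.01. What part the cell cycle genes or the changed astrocyte, neuron and oligodendrocyte lineage markers had in these values was not tested.

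**Figure D4:**
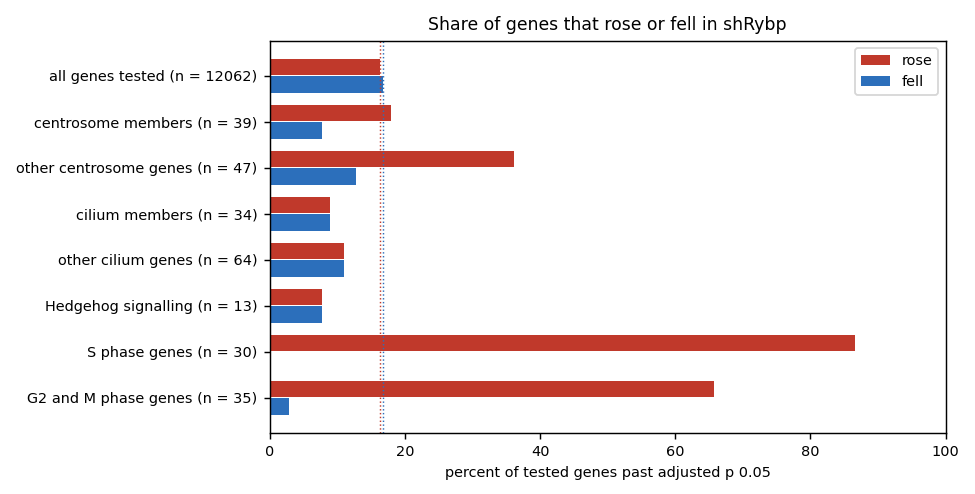
Percent of tested genes (x axis) that rose (red bars) or fell (blue bars) in shRybp for each gene list, with the number tested in parentheses and dotted lines at the shares of all tested genes, 16.3% and 16.7%. The further centrosome genes rose in 36.2%, both cilium groups rose and fell in about equal shares, and S phase genes rose in 86.7%.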

How the data were processed

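Transcripts of 2 control and 2 shRybp libraries were analysed from 1 deposited table. It holds raw read counts per gene and library, not normalized, per the file headers, and FPKM values that the authors computed from them, per the file headers. Dividing counts by FPKM gave the same gene lengths in all libraries, up to 1 factor per library (largest relative difference 3.6e-08). Per the submitters' processing notes the genome was mm10. The sources used here name no aligner, counter or strand setting. The table's 13881 genes each have at least 40 counts in total.

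Groups were assigned from sample titles. Counts of 12062 genes whose FPKM averaged 1 or more were fitted with edgeR 4.0.16 (TMM, quasi-likelihood, two-sided, R 4.3.3), Benjamini-Hochberg adjusted over all genes, threshold 0.05. SE is the absolute log2 fold change over the square root of F. The fit was tested on simulated data. Alternatives used DESeq2 1.42.0, limma 3.58.1 on log2(FPKM + 1) or log2(FPKM + 0.1), library totals, other filters, a replicate block and leaving out each library. Coordinates and exon overlaps come from GENCODE M21, whose starts and ends matched for 75 members.

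The members, roles and lists were chosen with earlier results of these data known, and the promoter motifs after the fold changes were seen. Named genes were, per role, up to 6 past the threshold and the 2 most abundant that did not pass, with 15 well-known members named whatever they did, and up to 5 genes a direction from each further list. Others, such as the ends of a range, were named after their values were seen. Genes counted in a list but neither named nor drawn one by one include some that are not reported here.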

Additional observations from a re-analysis of the deposited data

How the results depend on the processing

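Of the 16 members that rose or fell, Cep164 and Cep170 kept the call under all alternatives run and the other 14 lost it under at least 1. Of the 57 that did not pass, 49 did not pass under any. No called member changed direction. In the centrosome set DESeq2 called 2 rises and 1 fall in place of 7 and 3, and limma called 1 fall with either pseudocount. In the cilium set DESeq2 and limma with either pseudocount each called 1 rise and 1 fall in place of 3 and 3. Leaving out 1 library gave 3 to 5 rises and 1 to 3 falls in the centrosome set, 0 to 1 rises and 0 to 3 falls in the cilium set, and 1296 to 1640 rises and 1481 to 1760 falls over all genes. The fewest member calls remained without shRybp replicate 2, where 12 were lost. In a group left with 1 library, that library was assumed to vary like the others. With the replicate number as a replicate block, 11 members of the centrosome set rose, 6 members gained a call and 0 lost one. The labels do not say that a number marks a shared culture. Deviations of same-numbered libraries from their group means correlated at 0.103. This value cannot tell whether same-numbered libraries shared a culture or batch. The cause of these differences was not tested. Members with few counts, such as Bbs5 and Bbs10, allow changes of 1.5-fold.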
